A study of Homo sapiens with 6 samples.

Results

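Long noncoding RNA (lncRNA) genes were followed in human dermal fibroblasts after knockdown of ZNF469, a zinc-finger gene whose effect on extracellular matrix production the study set out to examine. The genes were chosen by symbol (LINC with a number, SNHG with a number, microRNA host genes named MIR...HG, and GAS5, MALAT1, NEAT1, H19 and MEG3) and selected on a count of 10 or more in all 6 libraries. Of 21151 listed genes, 378 had such a symbol and 163 met the count: 116 of 316 LINC genes, 23 of 29 small nucleolar RNA host genes (SNHG and GAS5), 20 of 29 microRNA host genes, and MALAT1, NEAT1, H19 and MEG3. The choice used the level and not the difference between groups, but it leaves out any gene that was counted under 10 times in a single library. All 163 passed the filter of the test. The cells were CCD-1064Sk, an established line of skin fibroblasts, grown in serum-containing medium. The shControl group (3 libraries, genotype labelled WT) carried a control short-hairpin RNA, and the shZNF469 group (3 libraries, labelled ZNF469 knockdown) carried short hairpins against ZNF469. Both groups are therefore hairpin-expressing derivatives of a single line. The labels call the 3 libraries of a group technical replicates, so the p-values measure the spread between libraries and not between independent cultures. The number of hairpins, and whether lines were clonal or pooled, is not given in the sources used here.

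A lncRNA is a long transcript with no known protein product. Some act in the nucleus as RNA: NEAT1 is the scaffold of paraspeckles, MALAT1 is held in nuclear speckles among splicing factors, and the imprinted genes H19 and MEG3 are each expressed from the maternal chromosome. Others are known mainly for what is cut out of them. SNHG genes carry small nucleolar RNAs (snoRNAs), guides for the modification of ribosomal and spliceosomal RNA, in their introns, and their spliced exons are often left to nonsense-mediated decay. MicroRNA host genes carry the hairpin precursors of microRNAs, short RNAs that repress messenger RNAs through a seed sequence near their 5′ end. Most LINC genes, named by number, have no assigned function.

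The fibroblast identity and the knockdown were checked first. All 8 fibroblast markers had counts, with COL1A1 and COL1A2 lower, VIM higher and the other 5 not past the test. Of markers of other skin cells, 1 of 5 for keratinocytes (KRT10, 21.8 to 27.1 CPM under shControl and 16.4 to 18.6 in the knockdown), 1 of 5 for melanocytes (PMEL, 12.2 to 13.2 and 23.97 to 25.9 CPM), 1 of 4 for endothelial cells (VWF, listed at 0 in 3 of 6 libraries) and 1 of 4 for leukocytes (CD68, 122 to 149 and 141 to 189 CPM) had values. The other markers of these lists were not found by symbol among the listed genes, so no value, not even 0, was available for them. KRT10 fell, a call that ended when shControl replicate 2 or 3, or shZNF469 replicate 1, was left out (adjusted p = 0.0697 to 0.0817), and PMEL rose. Their part in the lncRNA results was not tested. CPM are read counts scaled to a common library size, here with a trimmed-mean (TMM) factor per library. ZNF469 had 1416, 2179 and 1494 counts under shControl and 1000, 906 and 750 under shZNF469, and fell from 42.0 ± 3.70 to 19.4 ± 1.77 CPM (SD, n = 3), which left 46.2% (log2 fold change -1.12, adjusted p = 0.000873, edgeR). Library totals ran from 35417366 to 48298264 counts, of which 83720 to 134337 fell on the 163 lncRNA genes.

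Not every gene of the set lies between genes. GENCODE release 29 holds 154 of the 163 and types 109 as lincRNA (intergenic), 23 as processed transcript, 11 as antisense and 3 as protein coding under older names. The gene body of 33 overlaps that of another, protein-coding gene, and 25 share exon sequence with one, 17 of them on the opposite strand. Whether the authors counted by strand is not given in the sources used here, so the values of those 17 cannot be separated from reads of the partner. The others of the 25 share exon sequence on the same strand only, where counting by strand would not separate the reads either. In the authors' TPM, a measure meant to be scaled by transcript length, the snoRNA hosts led. How these TPM were made per transcript is not given in the sources used here, so the order between genes is uncertain. For example, GAS5 (longest transcript 1698 bases) had 291 TPM at 102 CPM, and SNHG8 (672 bases) had 28.3 TPM at 71.8 CPM. SNHG29 stood at 593 TPM averaged over the 6 libraries, GAS5 at 291, SNHG32 at 278 and SNHG5 at 224. NEAT1 followed at 183, MEG3 at 125 and MIR100HG at 87.9 TPM. The median of the 163 was 3.21 TPM, with 32 genes above 10 TPM and 19 below 1 TPM. NEAT1, SNHG29 and MALAT1 together held 34.7% of all counts on the set, and 5 genes, with MEG3 and SNHG32 added, held 46.9%.

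Few lncRNA genes passed the test. In shZNF469, 3 of 163 rose (MALAT1, SNHG14 and LINC02035) and 5 fell (MIR503HG, MIR210HG, MIR22HG, LINC00578 and LINC01182) at an adjusted p under 0.05 over all 16353 genes tested (edgeR quasi-likelihood test, Benjamini-Hochberg). This is 4.91% of the lncRNA genes, beside 9.9% of all genes tested. In the upward direction it is 1.84%, beside 4.56%, and in the downward direction 3.07%, beside 5.34%. The median log2 fold change was -0.0053 over the lncRNA genes and 0.0039 over all genes. The libraries of the groups did not overlap for 46 lncRNA genes (28.2%), beside 31.4% of all genes. By class, 1 LINC gene rose and 2 fell, 1 SNHG gene rose, 3 microRNA host genes fell, and MALAT1 rose. In these bulk samples, fewer cells of a type and less RNA per cell cannot be told apart.

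Most of these genes lay at low levels. Their median expression was 3.19 CPM, against 15.4 CPM over all genes tested. The median standard error (SE) of the log2 fold change was 0.226, against 0.108, so a gene without a call is not shown to be unchanged. Below 1 CPM, 0 of 25 lncRNA genes were called, beside 2.23% of all genes in that band. Between 1 and 5 CPM the share was 3.70% of 81, beside 4.83%. Between 5 and 20 CPM it was 2.78% of 36, beside 10.1%, and at 20 CPM or more it was 19.05% of 21, beside 14.4%. The number of calls moved with the tool and with single libraries. With DESeq2 it was 10 higher and 13 lower, or 15.3% of the 150 with an adjusted p, beside 22.5% of all genes (6 and 9 LINC genes, 2 and 1 snoRNA hosts, 0 and 3 microRNA hosts, and 2 and 0 of MALAT1, NEAT1, H19 and MEG3). Without shControl replicate 1, 2 or 3 there were 2, 2 and 4 calls, and without shZNF469 replicate 1, 2 or 3 there were 2, 8 and 6. Of the 8 genes, 2 were still called in each of the first 4 of these analyses, 7 in the fifth and 5 in the last, and the other calls were LINC00632 and LINC03112 (without shControl replicate 3), SNHG7 (without shZNF469 replicate 2) and LINC00205 (without shZNF469 replicate 3). MIR503HG and MIR210HG were called in each of the 13 alternative analyses.

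**Figure D1:**
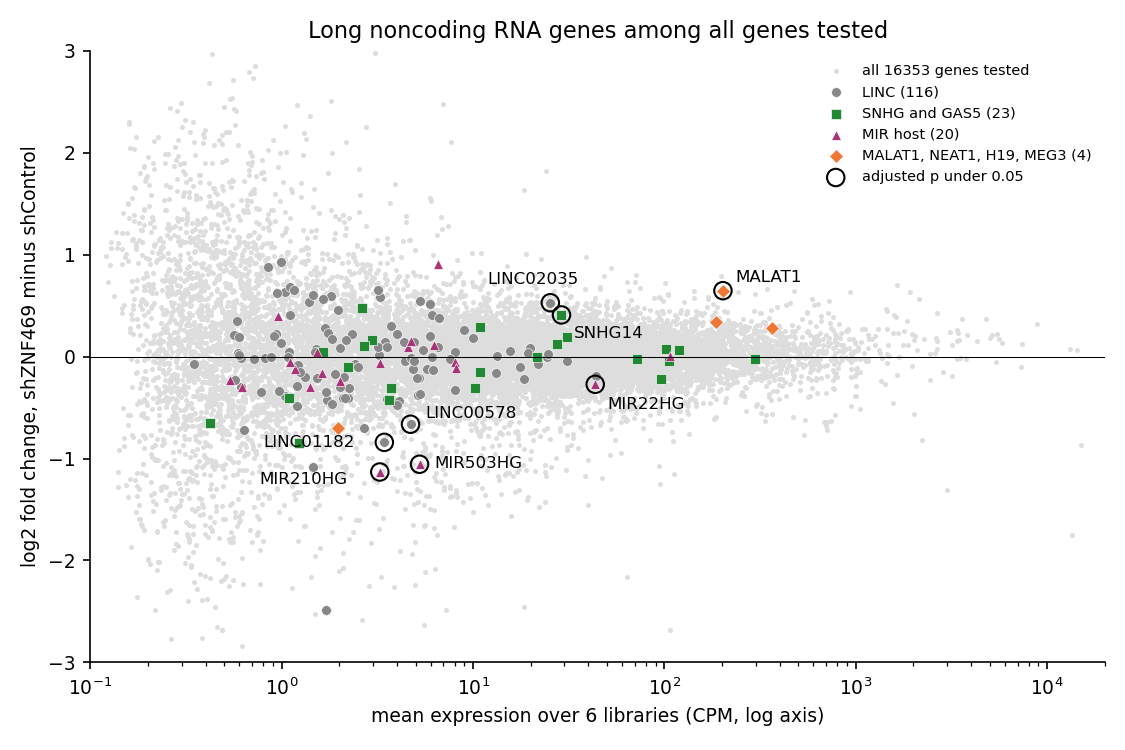
Log2 fold change (shZNF469 minus shControl, vertical axis) against mean expression over the 6 libraries (CPM, log axis) for the 163 lncRNA genes, coloured by class, over all 16353 genes tested in grey. Circles mark the 8 lncRNA genes with an adjusted p under 0.05, and grey genes with changes beyond the axis are left off.

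Among the lncRNA genes past the test, the largest falls were in the microRNA hosts MIR210HG and MIR503HG. MIR503HG (ENSG00000223749, chromosome X, 134543377 to 134546630, minus strand, lincRNA) had 245, 376 and 240 counts under shControl and 162, 180 and 127 under shZNF469, or 6.88, 7.98 and 6.42 against 3.47, 3.63 and 3.13 CPM. Each knockdown library lay well below every control. Expression was 2.08-fold lower (7.09 ± 0.803 to 3.41 ± 0.259 CPM, log2 fold change -1.06, SE 0.13, adjusted p = 0.0039). MIR210HG (ENSG00000247095, chromosome 11, 565657 to 568457, minus strand, lincRNA) had 143, 237 and 163 counts under shControl and 101, 84 and 92 under shZNF469, or 4.01, 5.03 and 4.36 against 2.16, 1.69 and 2.26 CPM. The groups were again separate, and expression was 2.19-fold lower (4.47 ± 0.517 to 2.04 ± 0.304 CPM, log2 fold change -1.13, SE 0.18, adjusted p = 0.0095). For both genes the adjusted p stayed under 0.05 in all 13 alternatives, with a highest value of 0.0491 for MIR503HG (on log2 TPM) and 0.0453 for MIR210HG (without shControl replicate 2). MIR22HG (ENSG00000186594, chromosome 17, 1711504 to 1716210, minus strand, lincRNA) changed less, with 48.1, 45.0 and 49.5 against 39.6, 41.3 and 37.2 CPM. Its libraries did not overlap, and it was 1.21-fold lower with an adjusted p of 0.0382 (log2 fold change -0.27, SE 0.06). That call was lost in 8 of 13 alternatives, among them without shControl replicate 1, 2 or 3 and without shZNF469 replicate 1 or 3 (adjusted p = 0.0755 to 0.14), with library totals alone as scaling (0.0628) and on TPM (0.512).

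**Figure D2:**
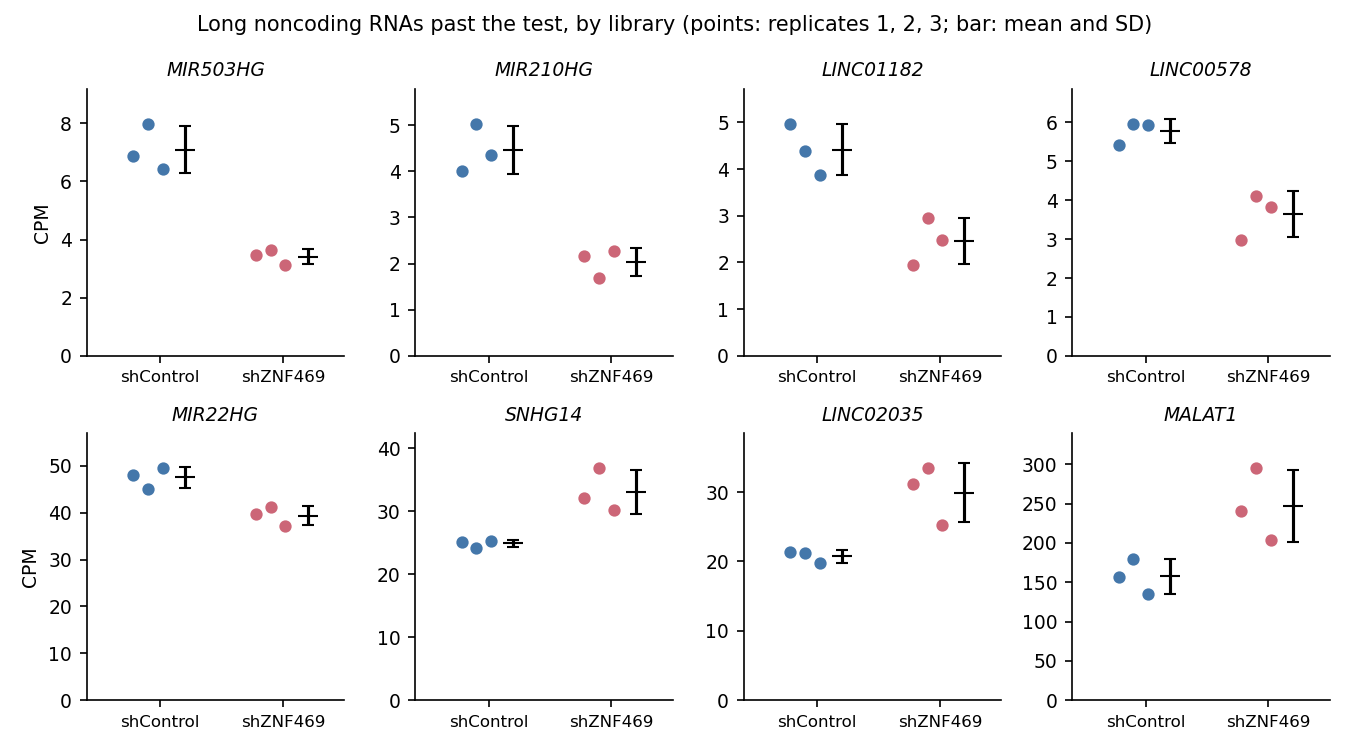
Normalised expression (CPM, linear axis from 0, each panel with its own scale) of the 8 lncRNA genes past the test in each shControl (blue) and shZNF469 (red) library, with group mean and SD (n = 3). MIR503HG, MIR210HG, LINC01182, LINC00578 and MIR22HG lie lower in every shZNF469 library than in any control, and SNHG14, LINC02035 and MALAT1 lie higher.

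The microRNAs encoded in these hosts show what the transcripts carry. RefSeq places 38 microRNA genes with 64 mature sequences inside 23 of the 163 genes. Mature microRNAs themselves were not measured here. A mature sequence from each of the 3 hosts that fell is printed 5′ to 3′ with the seed (bases 2 to 8) in capitals, together with the mature sequences that share the seed start of miR-503, to show which hosts carry it. MiR-503 and its neighbour miR-424 belong to the extended miR-16 family, known for repressing cell cycle genes. MiR-210 is the microRNA best known for induction by low oxygen.
miR-503-5p: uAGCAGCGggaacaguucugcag
miR-424-5p: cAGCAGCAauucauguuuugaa
miR-195-5p: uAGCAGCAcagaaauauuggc
miR-497-5p: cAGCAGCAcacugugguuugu
miR-646: aAGCAGCUgccucugaggc
miR-210-3p: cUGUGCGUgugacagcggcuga
miR-22-3p: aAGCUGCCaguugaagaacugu

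Bases 2 to 7 read AGCAGC in miR-503-5p, miR-195-5p, miR-497-5p and miR-646, which lie in 3 hosts. MIR503HG fell, as given above. MIR497HG, the host of miR-195 and miR-497, had 3.68, 5.31 and 4.52 CPM under shControl and 4.67, 4.90 and 5.44 under shZNF469, with overlapping groups (adjusted p = 0.655). MIR646HG stood at 1.23 ± 0.248 and 1.13 ± 0.564 CPM (adjusted p = 0.907). The hairpin of MIR424 straddles the annotated start of MIR503HG, with both of its mature sequences upstream. Of the 64 mature sequences, the seeds fell into 54 different ones, of which 6 were shared. The most frequent, GAGGUAG of the let-7 family, came from MIR100HG, MIRLET7A1HG, MIRLET7BHG and MIR4458HG, and none of these 4 hosts passed the test.

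The other 17 microRNA host genes did not pass. MIR100HG, which carries miR-100, let-7a and miR-125b and is the most abundant host in TPM, had 105, 109 and 106 CPM under shControl and 99.3, 117 and 105 under shZNF469 (adjusted p = 0.955). MIR31HG had 5.97 ± 1.20 and 6.46 ± 0.616 CPM, MIR222HG 4.39 ± 0.348 and 4.69 ± 0.321 CPM, MIR23AHG 8.41 ± 0.920 and 7.80 ± 0.492 CPM, and MIR1915HG 8.22 ± 0.593 and 7.95 ± 0.583 CPM. In each of these 4 the libraries of the groups overlapped. MIR193BHG, MIR130AHG, MIR4458HG and MIR4453HG lay between 1.26 and 3.32 CPM in both groups. MIR762HG, MIRLET7A1HG, MIRLET7BHG, MIR181A2HG and MIR29B2CHG lay between 0.492 and 2.17 CPM, where counts are few. Of 16 tested genes for microRNA processing and Argonaute proteins, 0 rose and 1 fell (median log2 fold change -0.02), beside 4.56% and 5.34% of all genes tested. The 1 that fell was DGCR8, the RNA-binding partner of the nuclear processing enzyme DROSHA. It went from 25.04 ± 1.59 to 18.5 ± 2.27 CPM (log2 fold change -0.44, adjusted p = 0.0375). At an unadjusted p under 0.05 there were 5 of the 16, and DESeq2 called 2 higher and 3 lower. The call of DGCR8 was lost in 7 of 13 alternatives, 5 of which leave out 1 library (each control, shZNF469 replicate 1 or shZNF469 replicate 3, adjusted p = 0.0628 to 0.146).

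**Figure D3:**
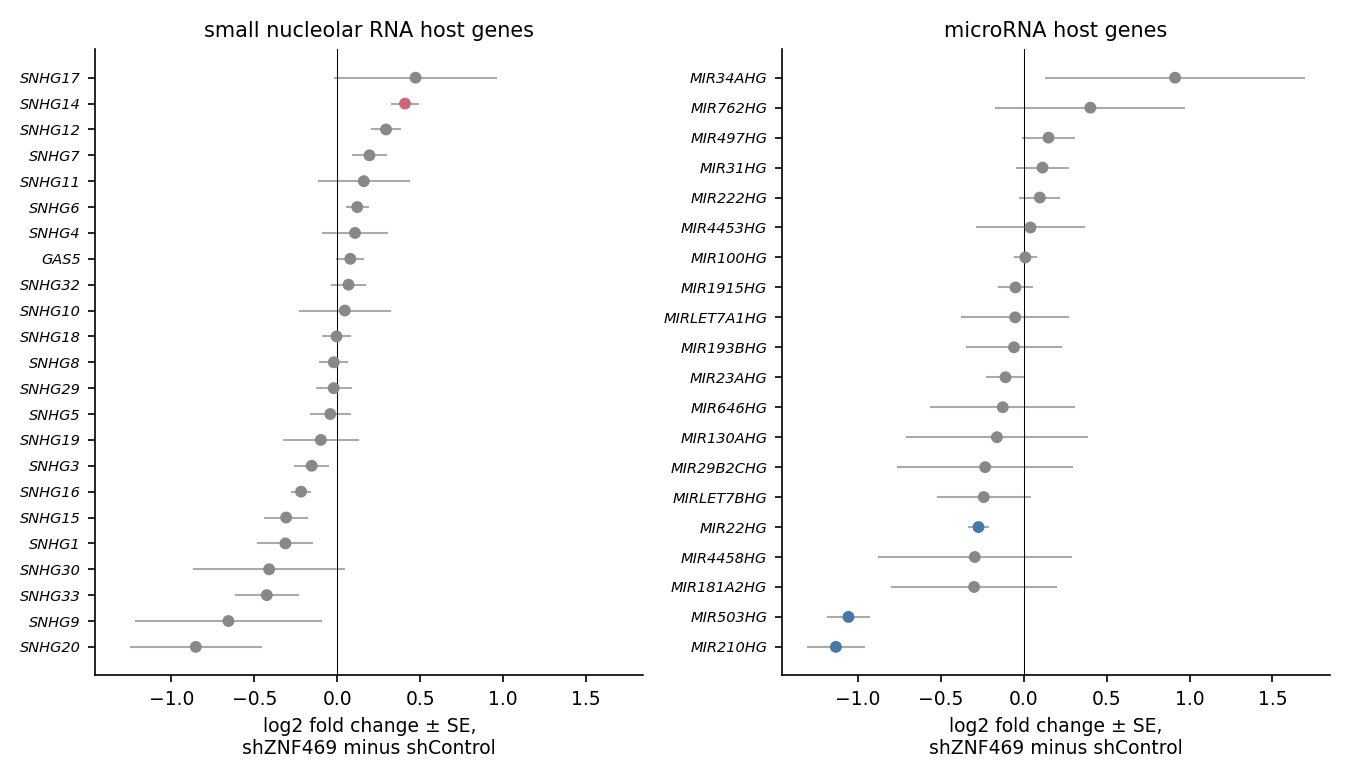
Log2 fold change ± SE (shZNF469 minus shControl) of the 23 snoRNA host genes (left) and the 20 microRNA host genes (right), sorted within each class; red and blue mark genes past the test. SNHG14 is the only snoRNA host past it, and MIR22HG, MIR503HG and MIR210HG the only microRNA hosts, in the edgeR analysis with all 6 libraries.

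Promoter sequence was read for the 3 hosts that fell. The windows run from 250 bases before to 50 bases after the RefSeq start (GRCh38.p14), on the strand of the gene. Capitals mark any match, on either strand, to ACGTG, a core form of the motif bound by hypoxia-inducible factors, to the CCAAT box, to TATAAA of the TATA box or to TGACTCA, the AP-1 motif.
MIR503HG promoter, chrX:134546581-134546880, minus strand: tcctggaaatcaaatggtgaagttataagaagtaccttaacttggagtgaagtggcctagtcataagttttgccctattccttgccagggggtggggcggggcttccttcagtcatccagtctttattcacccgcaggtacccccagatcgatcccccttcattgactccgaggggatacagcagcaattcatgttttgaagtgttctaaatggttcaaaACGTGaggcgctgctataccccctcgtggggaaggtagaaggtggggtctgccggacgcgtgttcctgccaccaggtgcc
MIR210HG promoter, chr11:568408-568707, minus strand: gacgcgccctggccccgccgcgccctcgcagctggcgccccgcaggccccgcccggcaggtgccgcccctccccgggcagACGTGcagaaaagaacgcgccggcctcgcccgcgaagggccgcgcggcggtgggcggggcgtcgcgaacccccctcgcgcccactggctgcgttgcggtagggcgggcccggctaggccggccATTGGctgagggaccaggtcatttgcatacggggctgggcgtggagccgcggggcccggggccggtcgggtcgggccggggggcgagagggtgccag
MIR22HG promoter, chr17:1716161-1716460, minus strand: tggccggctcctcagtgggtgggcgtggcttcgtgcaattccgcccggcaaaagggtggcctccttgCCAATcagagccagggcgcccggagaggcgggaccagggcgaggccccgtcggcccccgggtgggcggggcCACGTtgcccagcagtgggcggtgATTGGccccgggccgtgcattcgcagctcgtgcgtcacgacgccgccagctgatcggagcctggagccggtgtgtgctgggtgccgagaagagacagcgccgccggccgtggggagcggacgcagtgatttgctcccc

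A match to ACGTG was found in all 3 of these windows, starting at position -30 relative to the start in MIR503HG, -170 in MIR210HG and -112 in MIR22HG, and in none of the other 5 lncRNA genes past the test. It occurs in 21.6% of the 27305 RefSeq promoters of this length and in 25.4% of the 126 windows available for the lncRNA genes, so a match is common. ACGTG overlaps the longer CACGTG, which is in 7.43% of all promoters and in none of the 8. The CCAAT motif was present in 49.2% of the lncRNA windows and 35.7% of all promoters, TATAAA in 8.73% and 11.95%, and TGACTCA in 6.35% and 4.92%. MIR210HG and MIR22HG have GC-rich windows (80% GC with 44 CpG dinucleotides, and 72.3% with 32), and MIR503HG has 52.3% with 10, beside a median of 65.3% and 25 in microRNA hosts and 58.3% and 14 over all promoters. The windows of LINC02035, LINC00578, LINC01182 and SNHG14 hold 3, 3, 1 and 9 CpG dinucleotides. ACGTG itself contains a CpG, and the part of base composition in where it was found was not tested. The window of MIR503HG holds the whole hairpin of MIR424 (chromosome X, 134546614 to 134546711), and its ACGTG lies in the stretch that encodes miR-424-3p. These are matches of letters, and no binding was measured.

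Among LINC genes, LINC02035 rose and LINC00578 and LINC01182 fell. None of the 3 has a role that can be stated here. LINC02035 (ENSG00000273033, chromosome 3, 122886513 to 122892416, plus strand, lincRNA) had 21.4, 21.2 and 19.7 CPM under shControl and 31.1, 33.5 and 25.2 under shZNF469. All knockdown libraries exceeded the controls, and expression was 1.44-fold higher (log2 fold change 0.53, SE 0.11, adjusted p = 0.0249). LINC00578 (ENSG00000228221, chromosome 3, 177441921 to 177752704, plus strand, lincRNA) had 5.42, 5.96 and 5.93 CPM against 2.98, 4.12 and 3.84. The groups were separate, with a 1.58-fold fall (log2 fold change -0.66, SE 0.15, adjusted p = 0.0355). LINC01182 (ENSG00000250634, chromosome 4, 13655179 to 13931228, plus strand, lincRNA) had 4.97, 4.39 and 3.88 CPM against 1.95, 2.95 and 2.49, also without overlap, and was 1.79-fold lower with an adjusted p of 0.0371 (log2 fold change -0.84, SE 0.19). All 3 calls were lost without shControl replicate 1, 2 or 3 and without shZNF469 replicate 1, and those of LINC00578 and LINC01182 also without shZNF469 replicate 3 (adjusted p = 0.0816 to 0.104 for LINC02035, 0.0687 to 0.121 for LINC00578 and 0.0733 to 0.137 for LINC01182). On TPM the call of LINC02035 (0.129) and that of LINC01182 (0.0537) were lost as well.

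The remaining 113 LINC genes did not pass with all 6 libraries in edgeR. Nearest to the threshold were LINC03112, at 4.29 ± 0.696 and 6.27 ± 0.336 CPM (log2 fold change 0.55, adjusted p = 0.0542), LINC00857, at 4.70 ± 0.226 and 3.48 ± 0.212 CPM (-0.43, adjusted p = 0.0715), and LINC02693, at 19.8 ± 0.718 and 17.0 ± 0.317 CPM (-0.22, adjusted p = 0.0728). The libraries of the groups were separate for each of the 3. LINC03112 passed in 5 of 13 alternatives: with DESeq2 (adjusted p = 0.00312), library totals alone as scaling (0.0454), the minimum of 10 counts as filter (0.0405), TPM (0.0449) and without shControl replicate 3 (0.0417). LINC00857 and LINC02693 passed with DESeq2 (0.0244 and 0.0193). The most highly counted LINC genes were LINC00968 (46.7 ± 2.68 and 40.9 ± 0.921 CPM), LINC00963 (31.6 ± 1.81 and 30.7 ± 1.96), LINC02035, LINC00839 (24.4 ± 3.15 and 24.7 ± 1.31), LINC00205 (24.2 ± 1.09 and 24.1 ± 11.0) and LINC00667 (22.3 ± 2.43 and 21.2 ± 1.66). In LINC00205, shZNF469 replicate 3 stood apart, with 11.4 CPM beside 31.2 and 29.7 in the other 2 knockdown libraries, and without that library the gene was called higher (log2 fold change 0.33, adjusted p = 0.0472). Over the 116 LINC genes the fold changes were 57 above and 59 below 0, with a median of -0.0024, and 33 (28.4%) had groups without overlap, beside 31.4% of all genes.

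Of the 23 snoRNA host genes, SNHG14 alone passed the test. SNHG14 (ENSG00000224078, chromosome 15, 24823608 to 25419462, plus strand) is a long transcript of the imprinted Prader-Willi and Angelman region, known for silencing UBE3A in neurons, and RefSeq places 84 snoRNAs within it. It had 25.2, 24.2 and 25.3 CPM under shControl and 32.0, 36.9 and 30.2 under shZNF469. The knockdown libraries all lay above the tightly grouped controls, a 1.33-fold rise (log2 fold change 0.41, SE 0.08, adjusted p = 0.0241). Leaving out any control, or shZNF469 replicate 1, ended the call (adjusted p = 0.0809 to 0.0917), and on TPM the difference was 0.10 on the log2(TPM + 1) scale (adjusted p = 0.794). SNHG14 shares exon sequence with SNRPN on its own strand (77.5 ± 6.12 and 85.4 ± 9.80 CPM, adjusted p = 0.456) and with UBE3A on the other strand (70.3 ± 3.00 and 69.6 ± 6.66 CPM, adjusted p = 0.941), so its reads cannot be fully told apart from theirs.

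For the other 22 the test gave no call. GAS5, named for its rise in growth arrest and host of 11 snoRNAs, had 93.2, 99.8 and 106 CPM under shControl and 106, 94.8 and 115 under shZNF469 (log2 fold change 0.08, SE 0.08, adjusted p = 0.651). SNHG29 had 293, 271 and 339 against 286, 269 and 335 CPM, SNHG32 116 ± 13.8 against 122 ± 12.3 CPM, SNHG5 108 ± 18.9 against 105 ± 8.70 CPM and SNHG8 72.3 ± 7.27 against 71.3 ± 4.80 CPM. For these 5 abundant hosts the groups overlapped. SNHG16 came nearest to the threshold, at 103 ± 5.09 and 88.7 ± 3.54 CPM without overlap (log2 fold change -0.22, SE 0.06, adjusted p = 0.0658), followed by SNHG12 at 9.70 ± 0.543 and 11.9 ± 0.764 CPM (0.29, SE 0.09, adjusted p = 0.0934). Both passed with DESeq2 (0.00152 and 0.0221), and SNHG16 with the minimum of 10 counts as filter (0.0467). SNHG1, which carries 9 snoRNAs, had 10.3, 11.4 and 12.2 against 9.51, 10.9 and 6.89 CPM (-0.31, SE 0.17, adjusted p = 0.322). SNHG3, SNHG6, SNHG7, SNHG15, SNHG18 and SNHG33 lay between 3.10 and 33.0 CPM in both groups, with adjusted p from 0.209 to 0.987, and of these SNHG7 passed without shZNF469 replicate 2 (0.0416). SNHG4, SNHG9, SNHG10, SNHG11, SNHG19, SNHG20 and SNHG30 lay between 0.326 and 3.13 CPM, with adjusted p from 0.244 to 0.948.

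Lists of genes from the same pathways were counted beside the snoRNA hosts, against 4.56% of all genes higher and 5.34% lower. Of 39 other snoRNA host genes, 2 rose and 4 fell (median log2 fold change 0.02): NCL, for nucleolin, went from 411 ± 2.20 to 325 ± 6.70 CPM (log2 fold change -0.34, adjusted p = 0.00382), and EIF4G2 fell (-0.29), while TNPO2 (0.32) and EIF4A2 (0.25) rose. Of 15 genes for core proteins or assembly factors of snoRNA particles, 0 rose and 4 fell (median -0.25). The core proteins that fell were DKC1, the pseudouridine synthase dyskerin (33.0 ± 3.39 to 21.9 ± 1.24 CPM, -0.59, adjusted p = 0.00822), NOP56 (-0.29) and NOP58 (-0.27). The assembly factor RUVBL2 (-0.41) fell as well. Of 17 nonsense-mediated decay factors, 0 rose and 1 fell, RBM8A, a core protein of the exon junction complex (53.2 ± 1.52 to 42.3 ± 2.42 CPM, -0.33, adjusted p = 0.0159), and the list's median was 0.0069. At an unadjusted p under 0.05 the numbers were 10, 9 and 3 genes in either direction, and DESeq2 called 3 higher and 5 lower, 0 and 8, and 1 and 2. On log2(TPM + 1) limma called 0 higher and 1 lower, 0 and 2, and 0 and 0. The calls of EIF4G2, TNPO2, EIF4A2, NOP56, NOP58 and RBM8A were lost there. Leaving out 1 library gave 0 to 4 lower snoRNA particle genes (0 without shZNF469 replicate 1 and 1 without each control), 1 to 3 lower and 0 to 3 higher other hosts (1 lower and 0 higher without shControl replicate 1), and 0 to 2 lower decay factors. The call of RBM8A ended when any control or shZNF469 replicate 1 was left out (adjusted p = 0.0578 to 0.087). Among the named genes, NCL was called in all 13 alternatives, DKC1 lost its call without shZNF469 replicate 1 (0.0501), EIF4G2 without shControl replicate 1 (0.0555), and NOP56, RUVBL2, NOP58, TNPO2 and EIF4A2 in 3 or more of the 6 analyses that leave out 1 library.

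The nuclear and imprinted RNAs MALAT1, NEAT1 and MEG3 had higher mean counts in shZNF469, and MALAT1 alone passed the test. MALAT1 (ENSG00000251562, chromosome 11, 65497738 to 65506516, plus strand) had 157, 180 and 136 CPM under shControl and 241, 295 and 204 under shZNF469. The lowest knockdown library exceeded the highest control, and the rise was 1.57-fold (log2 fold change 0.65, SE 0.15, adjusted p = 0.0381). The call was lost in 7 of 13 alternatives: without shControl replicate 1, 2 or 3 or shZNF469 replicate 1 or 2 (adjusted p = 0.0622 to 0.132), with library totals alone as scaling (0.0507), and on TPM (0.144), where the groups stood at 39.9 ± 5.59 and 73.1 ± 32.8. MEG3 (ENSG00000214548, chromosome 14, 100826108 to 100861026, plus strand) had 161, 181 and 148 against 212, 223 and 186 CPM, also separate, with a log2 fold change of 0.34 (SE 0.09, adjusted p = 0.067), and passed with DESeq2 (0.00131) and with the minimum of 10 counts as filter (0.0274). NEAT1 (ENSG00000245532, chromosome 11, 65422798 to 65445540, plus strand) had 327, 369 and 293 against 402, 465 and 337 CPM. Its groups overlapped (log2 fold change 0.28, SE 0.13, adjusted p = 0.227), and in TPM its mean was lower in the knockdown, at 179 ± 18.5 beside 187 ± 55.8. MALAT1 and the long form of NEAT1 are known to lack an ordinary poly(A) tail, and whether RNA was selected by poly(A) is not given in the sources used here.

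H19 (ENSG00000130600, chromosome 11, 1995176 to 2001266, minus strand) was scarce, with 1.99, 3.01 and 2.27 CPM under shControl and 1.82, 1.63 and 1.01 under shZNF469. Its groups were separate but close, and it did not pass (log2 fold change -0.70, SE 0.30, adjusted p = 0.199). IGF2, the growth factor gene that shares the imprinted domain of H19 and is expressed from the other parental chromosome, fell from 156 ± 2.51 to 117 ± 11.4 CPM (log2 fold change -0.42, adjusted p = 0.0177). That call was lost without shControl replicate 1, 2 or 3 (adjusted p = 0.0696 to 0.0754). IGF2 was the 1 of 5 tested imprinted partners of H19 and MEG3 that passed, beside 9.9% of all genes tested. CDKN1C stood at 20.1 ± 2.97 and 26.4 ± 1.01 CPM (adjusted p = 0.0602).

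Genes for proteins of the nuclear bodies that NEAT1 and MALAT1 belong to were counted too. Of 17 paraspeckle protein genes, 0 rose and 8 fell, with a median log2 fold change of -0.24 beside 0.0039 over all genes, of which 4.56% rose and 5.34% fell. All 17 lay above 20 CPM, and of the 7275 genes tested at 20 CPM or more, 524 rose and 520 fell. SFPQ, a core paraspeckle protein, fell from 164 ± 1.54 to 123 ± 1.49 CPM (log2 fold change -0.42, SE 0.05, adjusted p = 0.00231). NONO and PSPC1, from the same list, did not pass. NONO stood at 389 ± 8.02 and 390 ± 14.6 CPM (0.0030, adjusted p = 0.98), and PSPC1 at 28.4 ± 1.61 and 23.9 ± 1.62 CPM (-0.25, adjusted p = 0.0794). TARDBP (-0.33) and HNRNPH3 (-0.32) fell as well, calls that were lost without shControl replicate 2 (adjusted p = 0.0521 and 0.0724) and, for HNRNPH3, without shControl replicate 1 (0.0701). Of 16 nuclear speckle protein genes, 1 rose and 5 fell (median -0.15). The splicing factor genes SRSF1 (147 ± 4.43 to 95.7 ± 2.54 CPM, -0.62), SRSF2 (-0.62) and SRSF3 (-0.43) fell, and SRRM2, a large scaffold protein of speckles, rose (283 ± 11.3 to 349 ± 13.3 CPM, 0.31, adjusted p = 0.0138). SFPQ, SRSF1 and SRSF2 were called in all 13 alternatives. DESeq2 called 0 paraspeckle genes higher and 13 lower, and 12 of the 17 had an unadjusted p under 0.05 in edgeR. On log2(TPM + 1) limma called 0 paraspeckle genes higher and 4 lower, and 1 speckle gene higher and 2 lower. The call of SRSF3 was lost there (adjusted p = 0.0505). Without shControl replicate 1, 2 or 3 the lower paraspeckle genes came to 3, 2 and 4, and without shZNF469 replicate 1, 2 or 3 to 4, 7 and 5. For speckle genes, 3 were lower without any 1 control or shZNF469 replicate 1, and SRRM2 missed the threshold when shControl replicate 1 or 3, or shZNF469 replicate 1, was left out (adjusted p = 0.0684 to 0.0733).

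Some abundant RNAs varied between libraries in a shared pattern. In both groups NEAT1, MALAT1 and MEG3 were highest in replicate 2 and lowest in replicate 3, while GAS5 and SNHG29 were highest in replicate 3. NEAT1 stood at 99.1, 112 and 89.0% of its group's mean in shControl replicates 1, 2 and 3, and at 100.2, 116 and 83.9% in shZNF469. MALAT1 stood at 99.8, 114 and 86.0% and at 97.6, 120 and 82.8%. SNHG29 went the other way, at 97.3, 90.0 and 113% and at 96.4, 90.6 and 113%. Not all abundant RNAs followed either pattern: MIR100HG, given above, was highest in replicate 2 but lowest in replicate 1 of both groups. The share of all counts taken by the 163 genes was 0.241 ± 0.0058% in the controls and 0.261 ± 0.0151% in the knockdown. Without NEAT1, MALAT1 and MEG3 it was 0.176 ± 0.0052% and 0.175 ± 0.0038%, so that the higher share lay in those 3 genes.

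**Figure D4:**
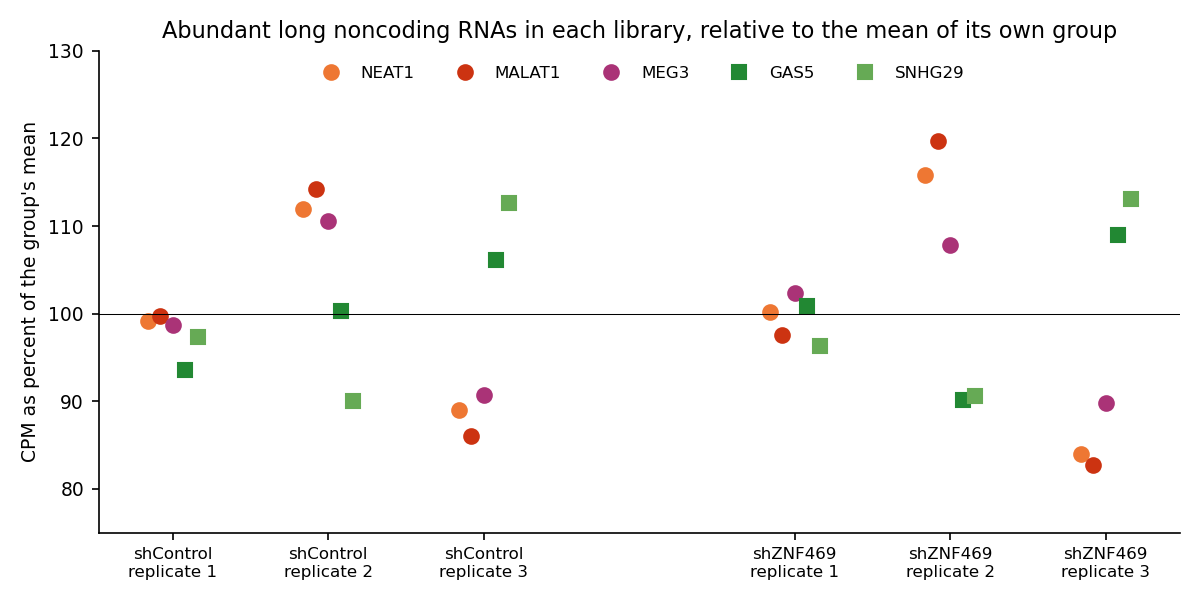
Normalised expression of 5 abundant lncRNAs in each library, as a percent of the mean of the library's own group, with the horizontal line at 100%. NEAT1, MALAT1 and MEG3 lie above the line in replicate 2 and below it in replicate 3 of both groups, and SNHG29 and GAS5 lie above it in replicate 3.

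For 3 lncRNA genes a single control library stood 4-fold or more from the next library of its group, which is 1.84% of the set beside 0.358% of the 14518 genes that met the same minimum. These shares were not matched for level, and the lncRNA genes lay lower (median 3.19 CPM, beside 15.4 CPM over all genes tested). MIR34AHG, the host of miR-34a and known as a p53 target, had 235, 14 and 253 counts under shControl and 413, 450 and 305 under shZNF469. Every knockdown library was above the controls, but shControl replicate 2 was far below its partners, and the log2 fold change of 0.91 (SE 0.78, adjusted p = 0.563) became 0.35 (adjusted p = 0.198) without it. LINC00632, the source transcript of the circular RNA CDR1as, had 150, 196 and 11 counts under shControl and 19, 33 and 19 under shZNF469. Here shControl replicate 3 lay at the level of the knockdown, and the log2 fold change of -2.48 (SE 0.84, adjusted p = 0.118) became -3.02 (adjusted p = 0.00649) without it. It also passed with DESeq2 (0.00393) and with the minimum of 10 counts as filter (0.0433). In TPM the sign was reversed, at 0.28 on the log2(TPM + 1) scale, and the gene shares exon sequence with CDR1 on the opposite strand. SNHG17 had 23, 133 and 117 counts against 131, 165 and 124, and its log2 fold change of 0.47 (adjusted p = 0.643) became 0.05 (adjusted p = 0.924) without shControl replicate 1. The 3 outlying libraries are 3 different controls.

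**Figure D5:**
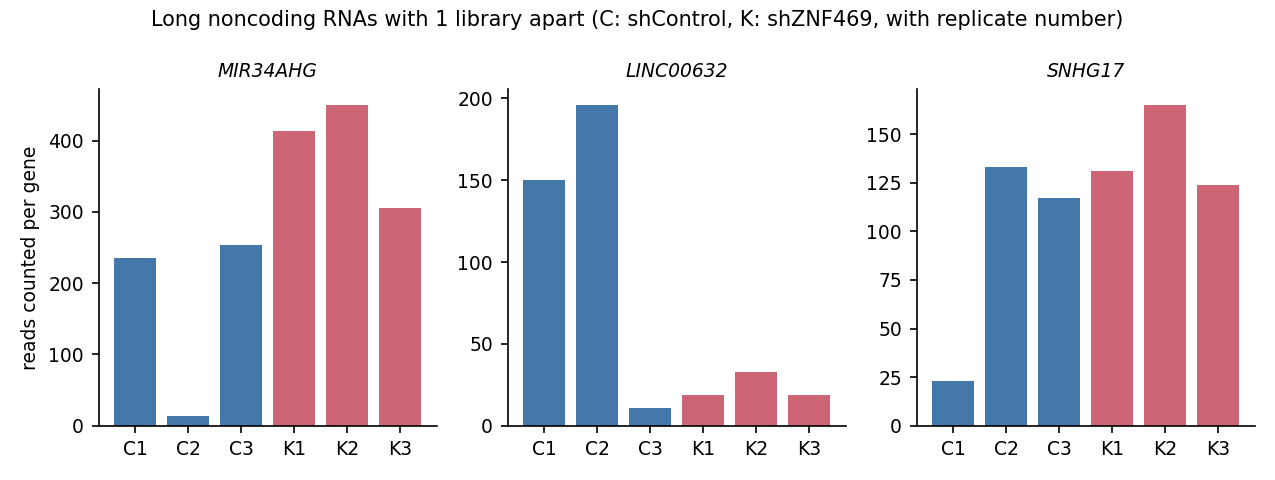
Read counts per gene (bars from 0) of MIR34AHG, LINC00632 and SNHG17 in the 3 shControl (C, blue) and 3 shZNF469 (K, red) libraries. The low bars are shControl replicate 2 with 14 counts, replicate 3 with 11 and replicate 1 with 23, each in a different gene.

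Neighbouring protein-coding genes were looked up for the lncRNA genes past the test. HPRT1, a purine salvage enzyme gene 42709 bases from MIR503HG, was lower too (23.7 ± 0.602 to 17.7 ± 1.04 CPM, log2 fold change -0.42, SE 0.07, adjusted p = 0.0109), a call lost without shControl replicate 1 or 3 (adjusted p = 0.0522 to 0.058). RASSF7, 1632 bases from MIR210HG, had 3.16 ± 0.855 and 2.03 ± 0.483 CPM (adjusted p = 0.2). WDR81, 313 bases from MIR22HG, had 42.2 ± 5.85 and 43.8 ± 2.10 CPM (adjusted p = 0.829). SLC49A4 near LINC02035 (adjusted p = 0.343), TBL1XR1 near LINC00578 (152 ± 6.49 and 146 ± 14.5 CPM), BOD1L1 near LINC01182 (53.1 ± 1.503 and 63.0 ± 7.06 CPM) and SNRPN, given above, did not pass. Over the 150 nearest tested coding genes, 10 were higher and 6 lower, which is 10.7% beside 9.9% of all genes. For the 33 lncRNA genes within 1000 bases of a tested coding gene, or overlapping it, 16 had the same sign of change as the neighbour and the fold changes correlated with a Pearson's r of 0.215 across gene pairs, some of which share reads.

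The count minimum set the edge of the group. Just inside it were LINC00519 (12, 18 and 13 counts under shControl and 16, 21 and 10 under shZNF469), LINC00632, given above, and LINC02985 (21, 27 and 26 against 12, 46 and 16). Just outside it were LINC01569 (9, 12 and 25 against 81, 111 and 30), LINC02175 (23, 8 and 15 against 35, 38 and 28) and LINC02637 (39, 24 and 15 against 7, 23 and 28). Of the 215 genes with a matching symbol that missed the minimum, 208 were listed at 0 in at least 1 library.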

How the data were processed

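The data were RNA-seq profiles of 6 libraries (3 shControl, 3 shZNF469). Total RNA was column-purified and made into libraries with an NEBNext Ultra kit (per the labels' protocols). The submitters' processing notes name HISAT2 and StringTie, with no version, and build GRCh38.p14. The annotation release and strand setting were not found in the sources used. The deposited table holds, for every gene and library, the authors' read count and their TPM. Of 21151 genes, 4195 have no symbol. LINC02210 is listed on 2 rows, of which the other row (4 counts in all) missed the minimum. Within groups, log2 CPM of library pairs correlated at r = 0.986 to 0.99 across genes, and counts differed by more than sampling noise (chi-square per degree of freedom 8.01 to 36.4).

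Counts were fitted with edgeR 4.0.16 in R 4.3.3: filterByExpr, TMM scaling, two-sided quasi-likelihood test without covariates, Benjamini-Hochberg over 16353 genes, called at an adjusted p under 0.05. CPM are TMM-scaled, and ± is the SD over 3 libraries. The code was tested on simulated data. The 13 alternatives were other scalings, filters and tools (DESeq2 1.42.0, limma 3.58.1 on log2(TPM + 1)), a replicate block and each library left out. With 3 against 3 libraries an exact permutation test cannot go below 0.1, so none is given. Members and gene lists were chosen with earlier results of these data known. Named genes were ZNF469, the 5 lncRNAs with names of their own, every called, SNHG or microRNA host gene, the 6 highest LINC genes and the 3 nearest to passing, the edges of the count minimum, the nearest coding gene of each called gene, up to 4 of lowest p per list and all cell type markers. Some genes under this rule are not reported here. Genes added after their values were seen are UBE3A, NONO, PSPC1 and those with a library apart. Gene positions and sequences are RefSeq's on GRCh38.p14 (160 of 163 genes matched, 126 promoters), and gene types and overlaps are from GENCODE release 29. Library depth limits genes below 1 CPM, and intervals cover counting error only where counts are given.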

Additional observations from a re-analysis of the deposited data

How the results depend on the processing

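Over all genes, DESeq2 called 1638 higher and 1642 lower (745 and 874 with edgeR), limma on log2(TPM + 1) 233 and 526, and leaving out 1 library gave 204 to 769 higher and 333 to 854 lower. For the lncRNA genes DESeq2 called 10 higher and 13 lower, the filter of 10 or more counts in all 6 libraries 5 higher, and log2(TPM + 1) 3 lower. Leaving out 1 library gave 0 to 4 higher and 2 to 5 lower, and a median log2 fold change from -0.0195 to 0.0279, the last without shZNF469 replicate 1. On log2(TPM + 1) the sign was reversed for NEAT1 (-0.0162) and LINC00632 (0.284). The cause was not tested. The edgeR fit with the replicate block called 5 lncRNA genes higher and 3 lower, and 592 and 736 over all genes. It added NEAT1 (adjusted p = 0.0293) and MEG3 (0.0199) to the lncRNA calls and dropped MIR22HG (0.0825) and LINC01182 (0.0726). Same-numbered libraries correlated at -0.0226, 0.0759 and 0.0334 (deviations from group means), and not every library correlated best with its own number, so over all genes the numbers were not taken as pairs, although NEAT1, MALAT1, MEG3 and SNHG29 varied alike by number in both groups. The other scalings and filters kept these 4 counts within 1.5 times. Depth limits the lowest class, where 25 genes lay under 1 CPM.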

Other observations

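Other lncRNA genes with names of their own were measured beside the set. Of 25 tested, 2 rose and 0 fell (median log2 fold change 0.03), beside 4.56% and 5.34% of all genes tested. In each of the 6 fits that leave out 1 library 2 were higher. PURPL, known as a p53-induced lncRNA, was listed at 0 in all 3 controls and had 121, 112 and 109 counts in the knockdown, so no fold is given. PURPL entered the test only through its counts in the knockdown, so its calls in these fits are not separate evidence of a change. MIAT, a nuclear lncRNA first linked to myocardial infarction, had 100, 152 and 92 counts under shControl and 243, 305 and 221 under shZNF469, without overlap (2.83 ± 0.384 to 5.60 ± 0.494 CPM, log2 fold change 0.98, SE 0.15, edgeR adjusted p = 0.00889). The call of either gene was lost on log2(TPM + 1) (adjusted p = 0.0849 for PURPL and 0.189 for MIAT).

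Of the 80 tested genes with a LINC, SNHG or microRNA host symbol that missed the count minimum, 3 were called higher and 0 lower. Over all genes tested the shares were 4.56% and 5.34%. All 3 were listed at 0 in every control and entered the test only through their counts in the knockdown, so the calls describe those counts and are not support for a change. LINC00398 had 12, 17 and 26 counts in the knockdown, LINC02878 15, 14 and 18, and LINC00954 15, 14 and 10. No fold is given for them.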
